A study of Mus musculus with 8 samples.

Results

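The untreated Wrn mutant liver was compared with wild type liver on 4 two-colour Agilent arrays, out of 8 in the series. The 4 arrays were chosen by their labels, which give liver RNA of a Wrn mutant in one channel and of a wild type animal in the other. Both genotypes were of the strain C57Bl/6 and 9 months old, and total RNA was used. Mutant and wild type mice with the same replicate number shared an array, so that arrays 1 to 4 are mutant 1 against wild type 1 and so on. On arrays 1 and 2 the mutant RNA carried Cy5, and on arrays 3 and 4 the dyes were swapped. The other 4 arrays held vitamin C treated Wrn mutants against wild type animals of the same 4 numbers. The sources used here do not give the kind of Wrn mutation, the sex of the mice, their number per RNA sample or the vitamin C dose. Replicates are described as biologically independent. Food and water were unrestricted and the light cycle was reversed.

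Wrn encodes a RecQ helicase with an exonuclease domain, which acts in DNA repair, replication and telomere upkeep, and loss of the human gene causes Werner syndrome, a disorder of early ageing. The liver makes most plasma proteins, turns amino acid nitrogen into urea, makes glucose and bile acids and detoxifies foreign compounds, so its RNA is mostly that of hepatocytes. Resident macrophages (Kupffer cells), endothelium and stellate cells add their own transcripts. In whole liver RNA, fewer cells of a type and less RNA per cell cannot be told apart. The deposited table gives log ratios without intensities, so levels of liver markers could not be checked, and only their ratios between the genotypes are given.

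Each value below is a deposited log ratio, read as log2. Values of a gene's features were averaged, which gave 19087 genes. The sources do not state whether the values of the swapped arrays had already been turned. Counts of genes and most leading genes are therefore given under both readings of their sign, and any other mean is as deposited unless it is called turned. "As deposited" takes every value as mutant over wild type. "Turned" takes the values as Cy5 over Cy3 and changes the sign on arrays 3 and 4. A gene with the same sign on all 4 arrays as deposited therefore has a mean nearer 0 when turned, and the reverse. Mutant as the numerator is likely from the titles of the unswapped arrays and the series title. It is not settled, because the array descriptions name wild type first, and with the other numerator every higher and lower below changes places. Means are given ± SE over 4 arrays, from a limma fit over all 8 arrays with a dye term.

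No gene passed an adjusted p of 0.05 in limma as deposited, 0 of 19087 genes or 0%, and the smallest adjusted p was 0.125. When turned, 9 genes passed, which is 0.0472%, and the 9 were all higher in the mutant. An unadjusted p under 0.05 was reached by 1487 genes (7.79%) as deposited, of which 599 (3.14%) were higher and 888 (4.65%) lower. Turned, it was reached by 1932 genes (10.1%), of which 1102 (5.77%) were higher and 830 (4.35%) lower. These counts stand beside about 954 genes at that p if no gene differed. Under both readings it was reached by 196 genes, counted whatever their direction. Some of them kept their direction, as S1pr1 at 0.85 as deposited and 0.84 turned. Others changed it, as Oat at -0.82 as deposited and 1.02 turned. How many did so was not counted. The same sign on all 4 arrays was shown by 2471 genes (12.9%) as deposited, 1092 (5.72%) above 0 and 1379 (7.22%) below. Turned, it was shown by 3271 genes (17.1%), 1754 (9.19%) above 0 and 1517 (7.95%) below. All 4 values lay above 0.5 for 5 genes and below -0.5 for 11 genes as deposited. After turning, 34 genes had all 4 values above 0.5 and 0 had all 4 below -0.5. Counts of list members at an unadjusted p under 0.05 are to be read beside 7.79% of all genes as deposited and 10.1% turned. Some lists were drawn up around genes already seen to differ in these data.

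Over 19087 genes Pearson's r was 0.209 between arrays 1 and 2 and 0.0757 between arrays 3 and 4. Across the layouts r lay between -0.115 and -0.0572 as deposited, and turning changes the sign of these 4 values but not their size. Genes are not independent replicates, and the arrays of one layout share any dye effect, so these values are descriptions. The dye term of the fit as deposited was called for 371 genes. That term is the mean change of both mutant groups over wild type when the values are turned, so a dye effect and a genotype effect cannot be told apart by this term without knowing the reading. The deposited columns also differed in form, with a median of 15 significant digits per value on arrays 1 and 2 and 6 on arrays 3 and 4.

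**Figure D1:**
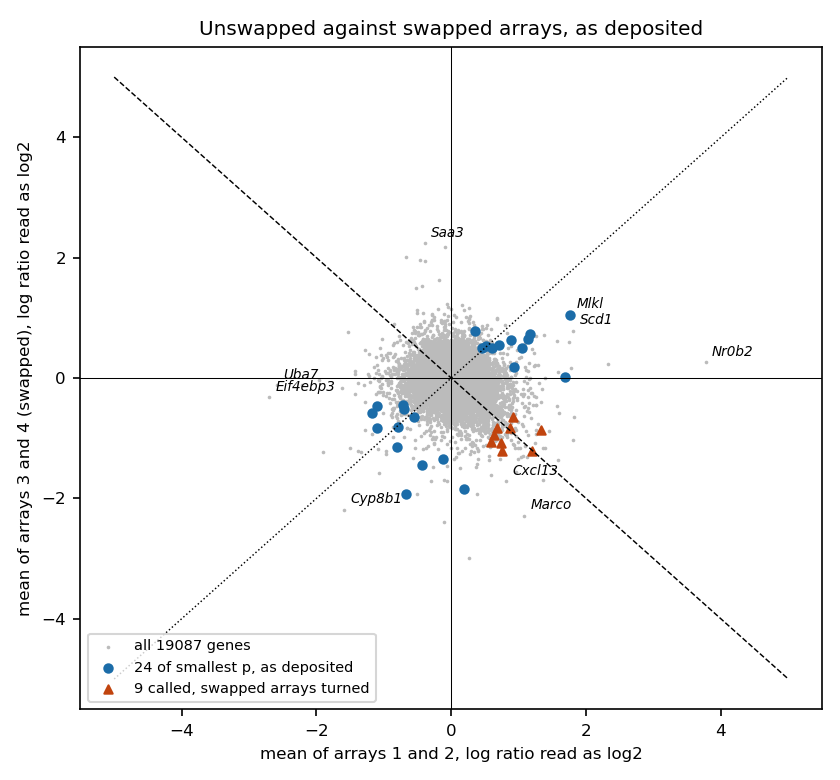
Each grey point is 1 of 19087 genes, with the mean of arrays 1 and 2 on the horizontal axis and the mean of arrays 3 and 4 on the vertical axis, both as deposited log ratios read as log2. Blue circles are the 24 genes of smallest p as deposited, most of them near the dotted line of equal values, and red triangles are the 9 genes called when turned, near the dashed line of opposite values. Genes far out along 1 axis, such as Nr0b2 and Saa3, owe their position to a single array.

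Wrn itself had deposited log ratios of 0.31, 0.11, -0.00 and 0.34 on arrays 1 to 4. Its mean was 0.19 ± 0.10 as deposited and 0.02 ± 0.10 turned, over 4 features whose means ran from -0.08 to 0.48. The place of these features relative to the mutated part is not known here, so the value checks no label. Of 25 measured RecQ helicases and their partners, 1 was at an unadjusted p under 0.05 as deposited and 0 turned. That gene was Mre11a, a nuclease of the double-strand break complex, at 0.28 ± 0.12 as deposited and -0.14 ± 0.15 turned. Blm, the helicase lost in Bloom syndrome, stood at -0.05 as deposited and -0.06 turned. Among 30 measured DNA repair genes and p53 targets, 3 reached that p under each reading. Ccng1, a p53 target, was one of them under both, with 0.50, 0.58, -0.13 and 0.07 on the 4 arrays and means of 0.25 ± 0.10 as deposited and 0.28 ± 0.13 turned. Xpc, a sensor of DNA lesions, stood at -0.41, -0.17, 1.62 and 0.47, so its mean was 0.38 ± 0.21 as deposited and -0.67 ± 0.16 turned. The list median was -0.05 as deposited and -0.04 turned, against -0.01 over all genes under both readings.

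The 12 genes of smallest p in each direction as deposited are named by a fixed rule, and none passed. Of these 24 genes, 21 had one sign on all 4 arrays, a property that choice by smallest p favours. Turning brought 11 of the 24 means to within 0.2 of 0, while 6 had an unadjusted p under 0.05 when turned. Among these 6, S1pr1, Xiap and Mt2 kept their direction. Slc25a15, Oat and H1f1 changed theirs, from -0.94, -0.82 and -0.73 as deposited to 0.50, 1.02 and 0.61 turned. On chromosome 8, where Wrn lies, 6 of the 24 were found. Genes near Wrn had been used in earlier work on these data to choose the reading as deposited, so their number is no independent evidence for it. An unadjusted p under 0.01 was reached by 3.30% of 938 genes on chromosome 8 as deposited and by 2.13% when turned, beside 1.85% and 3.16% over all genes.

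**Figure D2:**
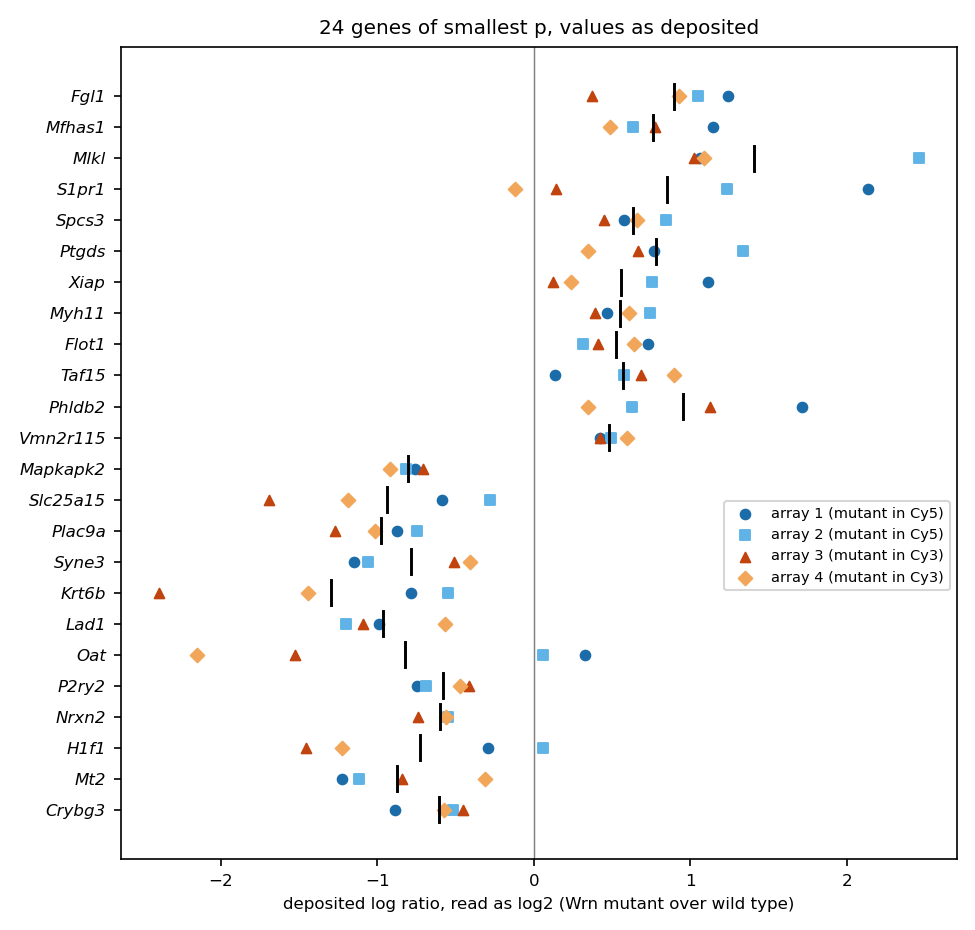
Deposited log ratios, read as log2, of the 24 genes of smallest p as deposited on the 4 Wrn mutant arrays, with 1 symbol per array and a black bar at the mean. Mapkapk2 lies between -0.92 and -0.71 on every array, whereas Oat is above 0 on arrays 1 and 2 and at -1.53 and -2.15 on the swapped arrays.

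Mapkapk2 encodes a kinase that p38 MAP kinase activates and that steadies cytokine mRNAs. Its values were -0.76, -0.81, -0.71 and -0.92, a mean of -0.80 ± 0.09 (adjusted p = 0.125 in limma), which is 1.74-fold lower. The values on the 4 arrays differ by little and all lie below 0. Turned, they cancel to 0.01 ± 0.12. Mapkapk3, its close relative, ran the other way, with 0.16, 0.70, 0.68 and 0.44 and a mean of 0.50 ± 0.13 as deposited and -0.07 ± 0.14 turned. Of 20 measured genes of the p38 pathway, 5 reached an unadjusted p under 0.05 as deposited, 1 higher and 4 lower, and 2 turned, both higher. Map2k3, a kinase that activates p38, shows how a gene changes sides. Its values of 0.33, 0.69, -1.06 and -1.18 gave -0.31 ± 0.12 as deposited and 0.82 ± 0.15 turned (adjusted p = 0.0977 in limma).

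Among genes of cell death, Mlkl, which forms the membrane pore of necroptosis, had the largest mean of all genes above 0 on every array. Its values were 1.06, 2.46, 1.02 and 1.09, with a mean of 1.41 ± 0.24 as deposited and 0.35 ± 0.33 turned. Array 2 is the high one, and the other 3 arrays agree to within 0.1. Xiap, an inhibitor of caspases, stood at 1.11, 0.76, 0.12 and 0.24, a mean of 0.56 ± 0.11 as deposited and 0.38 ± 0.15 turned. Tnfrsf1a, the main TNF receptor, stood at -0.33 ± 0.10 over 10 features as deposited. These 3 were the only genes of 21 measured in the necroptosis and caspase list at an unadjusted p under 0.05 as deposited. Turned, Xiap and Casp1 reached it, the latter with 1.23, 0.60, -2.21 and 0.03 and thus resting mostly on array 3.

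Several of the other leading genes encode secreted or structural proteins. Fgl1, a fibrinogen-like protein that hepatocytes secrete, stood at 1.24, 1.05, 0.37 and 0.93, the mean of 2 features at 0.20 and 1.59 as deposited, and 0.25 ± 0.15 turned. Ptgds, a prostaglandin D synthase, stood at 0.77, 1.33, 0.66 and 0.35, or 0.78 as deposited and 0.27 turned. Myh11, the smooth muscle myosin, stood at 0.46, 0.74, 0.39 and 0.61, with a mean of 0.55 ± 0.11 as deposited and 0.05 ± 0.16 turned. The 4 values of Myh11 lie close together, but another smooth muscle marker, Myl9, stood at -0.48 ± 0.17, and the median of 5 such markers was -0.02. Flot1, a scaffold protein of membrane rafts, stood at 0.73, 0.31, 0.41 and 0.64, and Phldb2, which anchors microtubules at the cell edge, at 1.71, 0.63, 1.13 and 0.35. For Spcs3, part of the signal peptidase, the values were 0.58, 0.84, 0.45 and 0.66, or 0.08 turned. Turned, Flot1 stood at -0.00 and Phldb2 at 0.22. Taf15 stood at 0.13, 0.57, 0.68 and 0.89, or -0.22 turned, and Vmn2r115 at 0.42, 0.49, 0.42 and 0.59, or -0.02 turned. S1pr1, the endothelial receptor for sphingosine-1-phosphate, stood at 2.13, 1.24, 0.14 and -0.12, so that arrays 1 and 2 hold nearly all of its mean of 0.85 ± 0.14 as deposited and 0.84 ± 0.26 turned. Of 19 measured sphingosine-1-phosphate genes, 5 were at an unadjusted p under 0.05 as deposited, 2 higher and 3 lower, among them Spns2, an exporter of that lipid, at -0.59 ± 0.18.

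On the lower side, Krt6b, a keratin of stressed epithelia, stood at -0.78, -0.55, -2.40 and -1.44, a mean of -1.29 ± 0.18 as deposited and 0.63 ± 0.28 turned, so that its direction depends on the reading. Plac9a stood at -0.87, -0.75, -1.27 and -1.01, and Lad1, an anchoring filament protein of basement membranes, at -0.99, -1.20, -1.09 and -0.57. Both were below -0.5 on every array as deposited, with means of -0.98 and -0.96, and turned they stood at 0.17 and -0.13. Syne3, a protein of the nuclear envelope, stood at -1.15, -1.06, -0.51 and -0.41 (mean -0.78 ± 0.11 as deposited and -0.32 ± 0.20 turned). P2ry2, a receptor for extracellular nucleotides, stood at -0.75, -0.69, -0.41 and -0.47, or -0.14 turned. Mt2, a metallothionein that binds zinc and copper, stood at -1.23, -1.12, -0.84 and -0.31, or -0.87 ± 0.15 as deposited and -0.30 ± 0.11 turned. Nrxn2, a neurexin, lay between -0.74 and -0.55 on the 4 arrays, or 0.05 turned. H1f1 stood at -0.29, 0.06, -1.46 and -1.23, or 0.61 turned, and Crybg3 at -0.89, -0.52, -0.45 and -0.58, or -0.09 turned.

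Genes that handle ornithine, amino acids and glucose lay mostly lower as deposited. Slc25a15, the mitochondrial ornithine carrier of the urea cycle, stood at -0.59, -0.28, -1.69 and -1.19, with a mean of -0.94 ± 0.12 as deposited (adjusted p = 0.125 in limma) and 0.50 ± 0.16 turned. All 4 values are below 0, and the swapped arrays hold the larger ones. Oat, the ornithine aminotransferase, stood at 0.32, 0.06, -1.53 and -2.15, so it was -0.82 ± 0.13 as deposited and 1.02 ± 0.17 turned (adjusted p = 0.0822 in limma). Its sign thus depends on the reading. Asl, the argininosuccinate lyase, stood at -1.85, 0.08, -0.96 and -0.33. Slc38a3, a glutamine transporter, was below 0 on all 4 arrays, at -0.90, -0.21, -0.32 and -0.69. Of 17 measured genes of this list, 5 (29.4%, beside 4.65% of all genes) were lower and 0 higher at an unadjusted p under 0.05 as deposited. The mean was above 0 for 2 of the 17, and the median was -0.20. Turned, 3 were higher and 0 lower at that p, and the median was 0.10.

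Of 22 measured genes of gluconeogenesis and amino acid catabolism, 9 (40.9%, beside 7.79% of all genes) reached an unadjusted p under 0.05 as deposited. Of the 9, 8 were lower, and the list median was -0.28. Turned, 2 of the 22 reached that p, both higher, and the median was 0.03. Slc37a4, which carries glucose-6-phosphate into the endoplasmic reticulum for the last step of glucose release, stood at -1.29, -0.14, -0.50 and -0.71, a mean of -0.66 ± 0.18 as deposited and -0.06 ± 0.21 turned. Got1, an aspartate aminotransferase, stood at -1.56, -0.77, -1.88 and 0.01, and Gpt2, an alanine aminotransferase, at -0.79, -0.49, -0.77 and 0.01. Array 4 is thus near 0 for both aminotransferases. Pygl, the liver glycogen phosphorylase, stood at -0.49 ± 0.13 and Gys2, the liver glycogen synthase, at -0.29 ± 0.11. Ppargc1a, a coactivator of gluconeogenic genes, stood at -0.45, -0.47, -0.56 and 0.10. Pck1, the enzyme of the committed step, did not follow them, with 1.13, 0.39, -0.42 and -0.80, a mean of 0.08 ± 0.15 as deposited and 0.68 ± 0.13 turned. Uroc1, an enzyme of histidine breakdown, was the member above 0 at that p, at 0.33 ± 0.13. The list median was -0.30, -0.02, -0.23 and -0.24 on arrays 1 to 4, and without array 4 it was -0.14.

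In bile acid synthesis, Cyp8b1, the sterol 12-alpha-hydroxylase that sets the share of cholic acid, had the lowest mean among genes below 0 on every array. Its values were -2.26, -0.91, -0.94 and -3.43, a mean of -1.89 ± 0.39 as deposited (adjusted p = 0.365 in limma), which is 3.70-fold lower. All 4 arrays lie below 0 but span 2.5 log2 units. Turned, the mean was 0.30 ± 0.51. Cyp7a1, the rate-limiting enzyme of the classic pathway, stood at -1.86, -0.09, -0.91 and -1.60, a mean of -1.11 ± 0.37 as deposited and 0.14 ± 0.40 turned. Cyp7b1, of the alternative pathway, stood at -0.44 ± 0.18 as deposited and -0.01 ± 0.25 turned. Nr0b2 encodes SHP, the repressor of Cyp7a1 and Cyp8b1 that bile acids induce through FXR, and it stood at 6.90, 0.65, 1.03 and -0.49, or 2.02 ± 0.85 as deposited and 1.75 ± 0.80 turned. Its array 1 value is the highest of any gene on these arrays, and treated array 1, with the same wild type number, gave 2.57. Of 23 measured genes of bile acid synthesis and transport, these 4 were at an unadjusted p under 0.05 as deposited, 1 higher and 3 lower, and the median was -0.05. Turned, 2 were, led by Akr1d1, the bile acid 5-beta-reductase, at 0.35, 0.83, -0.77 and -1.50 (0.86 ± 0.14, adjusted p = 0.0768 in limma), and Abcb4, the phospholipid exporter of bile, stood at -0.30 ± 0.09.

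The promoter of Cyp8b1 is shown because the gene had the lowest mean. The sequence is the 250 bases before the RefSeq start on assembly GRCm38.p6, chr9:121916306-121916555, minus strand, written 5′ to 3′. Capitals mark the motif CAAAGTCCA, a form of the site of HNF4, the hepatocyte nuclear receptor, which was searched on both strands.
Cyp8b1: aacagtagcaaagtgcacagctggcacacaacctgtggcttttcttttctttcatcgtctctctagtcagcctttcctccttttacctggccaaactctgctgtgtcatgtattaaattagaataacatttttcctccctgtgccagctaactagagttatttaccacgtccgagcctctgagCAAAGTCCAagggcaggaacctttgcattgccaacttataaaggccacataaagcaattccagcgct
The motif occurs once here, and 126 of 32851 promoter windows of this length (0.384%) hold it. A match describes the letters and shows no binding.

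Lipid synthesis genes did not share one direction. Scd1, the stearoyl-CoA desaturase, stood at 2.35, 1.27, 0.78 and 0.80, with a mean of 1.30 ± 0.43 as deposited and 0.51 ± 0.46 turned. Elovl3, a fatty acid elongase higher in male liver, stood at -0.80, -0.80, -0.22 and -0.70. Acacb, the acetyl-CoA carboxylase at the mitochondrial surface, stood at -1.16, -0.67, -0.45 and -0.38. Fads1, a delta-5 desaturase, stood at 0.31, 0.00, 0.85 and 0.64. These were the 4 of 22 measured genes of fatty acid and triglyceride synthesis at an unadjusted p under 0.05 as deposited, 2 higher and 2 lower, with a list median of -0.05. In cholesterol synthesis the arrays disagreed. The median of 20 measured genes was 0.39, 0.03, 0.50 and -0.31 on arrays 1 to 4, so that array 4 lay below 0 and array 2 near it. Hmgcs1, which makes HMG-CoA, stood at 1.29, 1.31, 0.60 and -0.76 and Sqle, the squalene epoxidase, at 0.86, -0.31, 1.71 and 0.36. Turned, the list median was -0.03, beside 0.25 as deposited.

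Of 28 measured genes of the unfolded protein response, 24 (85.7%) had a mean above 0 as deposited, beside 46.7% of all genes, but 1 reached an unadjusted p under 0.05 and the median was 0.12. That gene was Ddit3, which encodes the stress factor CHOP, at 1.13, 0.64, 0.40 and 0.66, a mean of 0.71 ± 0.17. All 4 arrays were above 0 for Ddit3. For Hspa5, the main chaperone of the endoplasmic reticulum, the values were 1.18, -0.43, 0.23 and 0.58. The list median was 0.42, -0.01, 0.07 and 0.26 on arrays 1 to 4. Turned, 12 of the 28 were above 0, and 5 reached that p, 4 higher and 1 lower, with Ddit3 at 0.18 ± 0.18 not among them. Xbp1, a transcription factor of this response, stood at 0.42, 0.53, -0.34 and 0.01, which is 0.32 ± 0.11 turned.

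Of 26 measured NRF2 targets and glutathione enzymes, 12 were above 0 and 14 below as deposited, with a median of -0.01. At an unadjusted p under 0.05 stood 5 members, which were higher and encode glutathione transferases. Gstp1 stood at 0.72, 0.31, 0.26 and 1.41 and Gstm3 at 0.63, 0.49, 1.06 and 0.12, and both were above 0 on every array. Gsta4, over 10 features, stood at 0.90, 0.65, 0.39 and -0.10, Gsta2 at 1.46, 0.99, 0.01 and -0.60, and Gstm1 at 0.57, 0.40, 0.43 and -0.10. The features of such paralogs may bind each other's RNA, so single members are uncertain. Turned, 7 of the 26 were higher at that p and 0 lower, with a median of 0.18. Catalase (Cat) was called and is described with the called genes. Gclm, which helps make glutathione, stood at 0.58 ± 0.11 turned, Gpx1, the main glutathione peroxidase, at 0.47 ± 0.11, and Nfe2l2, which encodes NRF2 itself, at 0.30 ± 0.13. Gsta2 was the member that reached that p under both readings, at 0.47 ± 0.15 and 0.76 ± 0.18.

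Iron and heme genes reached an unadjusted p under 0.05 for 6 of 23 measured members as deposited, 4 higher and 2 lower, and for 7 turned, 5 higher and 2 lower. Alas1, the first enzyme of heme synthesis, stood at -0.42, -0.80, -0.56 and -1.13, a mean of -0.73 ± 0.19 as deposited and 0.12 ± 0.14 turned. All 4 of its values are below 0. Ppox, a late enzyme of the same pathway, stood at 0.69, 1.10, 0.30 and 0.13, which is 0.56 ± 0.12 as deposited and 0.34 ± 0.12 turned. Tfrc, the transferrin receptor, stood at 0.23 ± 0.09 over 10 features and Hamp, which encodes the iron hormone hepcidin, at -0.55 ± 0.19 as deposited. Transferrin (Trf) stood at 0.93, 0.99, -0.53 and -1.20, near 0 as deposited (0.05 ± 0.13) and at 0.91 ± 0.13 turned (adjusted p = 0.0585 in limma). The ferritin light chain gene Ftl1 stood at 0.84, 0.52, -1.01 and -0.50, which is 0.72 ± 0.11 turned (adjusted p = 0.0649 in limma).

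Transcriptional regulators were among the largest means of one sign on every array as deposited. Nr4a1, an orphan nuclear receptor and immediate early gene, stood at -2.22, -1.58, -1.36 and -1.10, a mean of -1.56 ± 0.31, which is 2.96-fold lower, and -0.34 ± 0.33 turned. Bcl6, a transcriptional repressor of many female-biased liver genes, stood at 2.20, 0.57, 0.52 and 0.90, with a mean of 1.05 ± 0.26 as deposited and 0.34 ± 0.30 turned. Rora, a nuclear receptor of the circadian clock, stood at 0.49, 0.18, 0.69 and 0.70. Sirt6, a deacetylase of chromatin, stood at -1.03, -1.03, 0.04 and 0.03, so its means of -0.50 ± 0.15 as deposited and -0.53 ± 0.17 turned came from the unswapped arrays alone. Of 22 immediate early genes, 2 were lower and 0 higher at an unadjusted p under 0.05 as deposited, Nr4a1 and Egr1, the latter at -0.36 ± 0.13. Turned, 2 were higher and 1 lower at that p. Egr1 was then among the higher ones, at 0.33 ± 0.13, so its direction depends on the reading. Large means of one sign were also shown by Cd74, the invariant chain of antigen presentation, at 1.89, 1.25, 0.51 and 0.72, by Tppp at 1.57, 2.00, 0.32 and 0.01, and by A1bg, a plasma protein gene higher in female mouse liver, at 1.59, 0.93, 0.50 and 0.91. On the lower side stood Sult3a1, a sulfotransferase, at -1.61, -1.38, -1.35 and -0.96, Erdr1 at -1.85, -0.93, -1.28 and -1.16, and Eif4ebp3, a repressor of translation, at -4.60, -0.80, -0.46 and -0.16. Turned, the means were 0.48 for Cd74, 0.81 for Tppp, 0.28 for A1bg, -0.17 for Sult3a1, -0.08 for Erdr1 and -1.19 for Eif4ebp3. None of the genes in this paragraph had an adjusted p under 0.2 in limma under either reading.

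Sex-biased liver genes lay on both sides of 0. Of 21 measured female-biased genes, 4 reached an unadjusted p under 0.05 as deposited, 2 higher and 2 lower. Sult1e1, an estrogen sulfotransferase, stood at -0.72, -0.99, -0.27 and -1.69. Of 20 measured male-biased genes, 7 did, 3 higher and 4 lower. Mup3, a major urinary protein, stood at -0.76, 0.08, -1.16 and -1.11, a mean of -0.74 ± 0.17 as deposited and 0.40 ± 0.30 turned, and its features may bind RNA of other family members. The medians were 0.04 and 0.06 as deposited, and 0.25 and 0.00 turned. The sex of the animals was not tested.

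Under the turned reading, 9 genes were called in limma, each with an adjusted p of 0.0471, and all were higher in the mutant. The deposited values of these genes ran from 0.62 to 1.63 on array 1, from 0.48 to 1.13 on array 2, from -1.13 to -0.50 on array 3 and from -1.64 to -0.71 on array 4. Every value is thus above 0 in one dye layout and below 0 in the other, and the layouts do not overlap. Choice by p after turning favours this pattern. The means ran from 0.75 to 1.21 turned, 1.68-fold to 2.31-fold, and from -0.23 to 0.23 as deposited. The treated arrays gave these genes 0.43 to 1.24 when turned. Those arrays share the dye layout and the wild type numbers, so their values are no independent evidence.

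**Figure D3:**
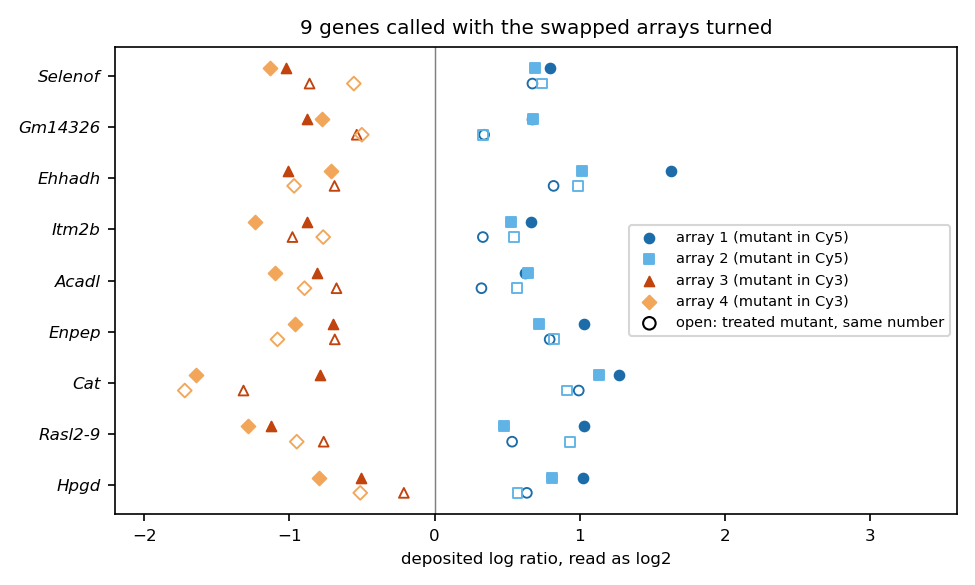
Deposited log ratios, read as log2, of the 9 genes called when the swapped arrays are turned. Filled symbols are the 4 Wrn mutant arrays and open symbols the treated mutants of the same number, with Cy5-mutant arrays (blue) to the right of 0 and Cy3-mutant arrays (red and orange) to the left for every gene.

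Of the 9, 3 are enzymes of peroxisomes or of fatty acid breakdown. Cat, the peroxisomal catalase that destroys hydrogen peroxide, stood at 1.27, 1.13, -0.79 and -1.64, which is 1.21 ± 0.15 turned and -0.01 ± 0.14 as deposited. Ehhadh, the peroxisomal bifunctional enzyme of beta-oxidation, stood at 1.63, 1.02, -1.01 and -0.71, which is 1.09 ± 0.13 turned. Acadl, the mitochondrial long-chain acyl-CoA dehydrogenase, stood at 0.62, 0.64, -0.81 and -1.10, or 0.79 ± 0.10 turned. The other 6 have diverse roles. Selenof, a selenoprotein of the endoplasmic reticulum, had the smallest p, with 0.80, 0.69, -1.02 and -1.13, or 0.91 ± 0.10 turned. Hpgd, which inactivates prostaglandins, stood at 0.78 ± 0.10 and Enpep, an aminopeptidase that cuts angiotensin, at 0.85 ± 0.11. Itm2b, a membrane protein processed by furin, stood at 0.83 ± 0.10, Gm14326 at 0.75 ± 0.09 and Rasl2-9, a Ran-like gene, at 0.98 ± 0.13, all turned. All of these calls were lost when the Wrn mutant arrays were fitted alone, when the dye term was left out and when mutant array 1, 2 or 4 was left out. Only Cat was called without mutant array 3.

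Fatty acid oxidation genes lay higher when turned. Of 25 measured, 7 (28.0%) were higher at an unadjusted p under 0.05, beside 5.77% of all genes, and 0 lower, with a median of 0.14. The call of Acadl and Ehhadh is part of that count. Cyp4a14, a fatty acid hydroxylase induced by PPAR alpha, stood at 0.50, 0.60, -0.64 and -0.79, or 0.63 ± 0.12 turned. Acaa1b, the peroxisomal thiolase, stood at 1.15, 0.55, -0.48 and -1.22, or 0.85 ± 0.19. Fabp1, the liver fatty acid binding protein, stood at 1.79, 0.37, -0.14 and -0.39. As deposited, Angptl4, a lipase inhibitor, was the sole list member at that p, at -0.30 ± 0.10, and the median was 0.00.

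Detoxification enzymes also lay higher when turned. Of 31 measured cytochrome P450 and phase 2 genes, 10 (32.3%, beside 10.1% of all genes) reached an unadjusted p under 0.05 when turned. Of the 10, 8 were higher and 2 lower, and the list median was 0.31. Cyp2e1, which oxidises ethanol, stood at 0.57, 1.42, -0.67 and -2.01, or 1.17 ± 0.22 turned (adjusted p = 0.104 in limma). Cyp2c29 stood at 1.26, 0.95, -0.43 and -1.32, or 0.99 ± 0.17. Cyp3a11, the main drug-oxidising member of its family in mouse liver, stood at 0.98, 1.20, -0.91 and -1.33, or 1.11 ± 0.35. Members of these families are close paralogs, so a feature may bind RNA of several. As deposited, 1 of the 31 reached that p and the median was -0.01. In a list of 27 measured lipoprotein and coagulation genes, 20 were above 0 when turned and 8 of these reached an unadjusted p under 0.05, with 0 lower ones at that p, among them F2, prothrombin, at 0.46 ± 0.09 and Apoh at 0.45 ± 0.10.

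Ascorbate genes were listed because the series includes vitamin C treatment. As deposited, 2 of 13 were at an unadjusted p under 0.05, both lower. Gulo, the enzyme that completes ascorbate synthesis in mice, stood at 0.06, -0.28, -0.21 and -0.52, a mean of -0.24 ± 0.10 as deposited and 0.13 ± 0.11 turned. Slc2a1, the glucose transporter GLUT1, which also takes up dehydroascorbate, stood at -1.58, -0.51, -0.30 and -0.05, or -0.61 ± 0.16. When turned, 8 of the 13 (61.5%, beside 10.1% of all genes) reached that p, 5 higher and 3 lower. Ugp2, which makes UDP-glucose at the start of the route, stood at 1.15, 0.95, -0.50 and -1.04, or 0.91 ± 0.15 turned (adjusted p = 0.0649 in limma). Rgn, the gluconolactonase before Gulo, stood at 0.46 ± 0.18 and Akr1a1, the reductase of glucuronate, at 0.36 ± 0.14. The transporter Slc23a1 stood at 0.08, 0.15, -0.31 and -0.44, which is -0.13 ± 0.11 as deposited and 0.25 ± 0.11 turned. Gsto2 and Glrx, which can reduce dehydroascorbate, stood at -0.34 ± 0.13 and -0.37 ± 0.13 turned.

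Other lists lay lower when turned. Of 46 cytosolic ribosomal protein genes, 12 (26.1%) were lower at an unadjusted p under 0.05 and 0 higher, beside 4.35% of all genes lower, with a median of -0.13. Rpl26 stood at -0.19, -0.36, 0.63 and 0.81, or -0.50 ± 0.10 turned. As deposited, 3 of the 46 reached that p, 1 higher and 2 lower. Of 17 hepatocyte transcription factors, 14 were below 0 when turned and 7 (41.2%) were lower at an unadjusted p under 0.05, with 0 higher ones at that p. Foxa3 stood at -0.47, -0.75, 0.47 and 0.45, or -0.53 ± 0.14 turned, and Foxa1 at -0.42 ± 0.11. Onecut1 (HNF6) was lower under both readings, with -1.19, -0.75, 0.14 and -0.20, or -0.50 ± 0.13 as deposited and -0.47 ± 0.13 turned, but passed under neither. Of 42 genes of the respiratory chain and ATP synthase, 10 reached that p when turned, 3 higher and 7 lower, and 0 as deposited. The median of these 42 was -0.06 as deposited and -0.08 turned, so this list lay slightly below 0 under both readings. Igf1, the liver-made growth factor, stood at -0.45, -0.44, 0.56 and 1.13 over 11 features, or -0.64 ± 0.12 turned (adjusted p = 0.0918 in limma), and Mif, a cytokine, at -0.56, -0.23, 0.87 and 1.03, or -0.68 ± 0.11.

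The interferon list differed by array and reading. Of 24 measured genes, 22 were above 0 when turned (91.7%, beside 48.6% of all genes) and 18 as deposited, with medians of 0.30 and 0.04. Irf7, the main factor for type I interferon, stood at 0.92, 0.48, -1.09 and -0.32, or 0.70 ± 0.22 turned. Tap1, a peptide transporter for antigen presentation, stood at 0.70, 0.81, -0.15 and -0.63, or 0.57 ± 0.11 turned. As deposited, 2 of the 24 reached an unadjusted p under 0.05, Irf1 at 0.30 ± 0.13 and Mx1 at -0.32 ± 0.11.

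**Figure D4:**
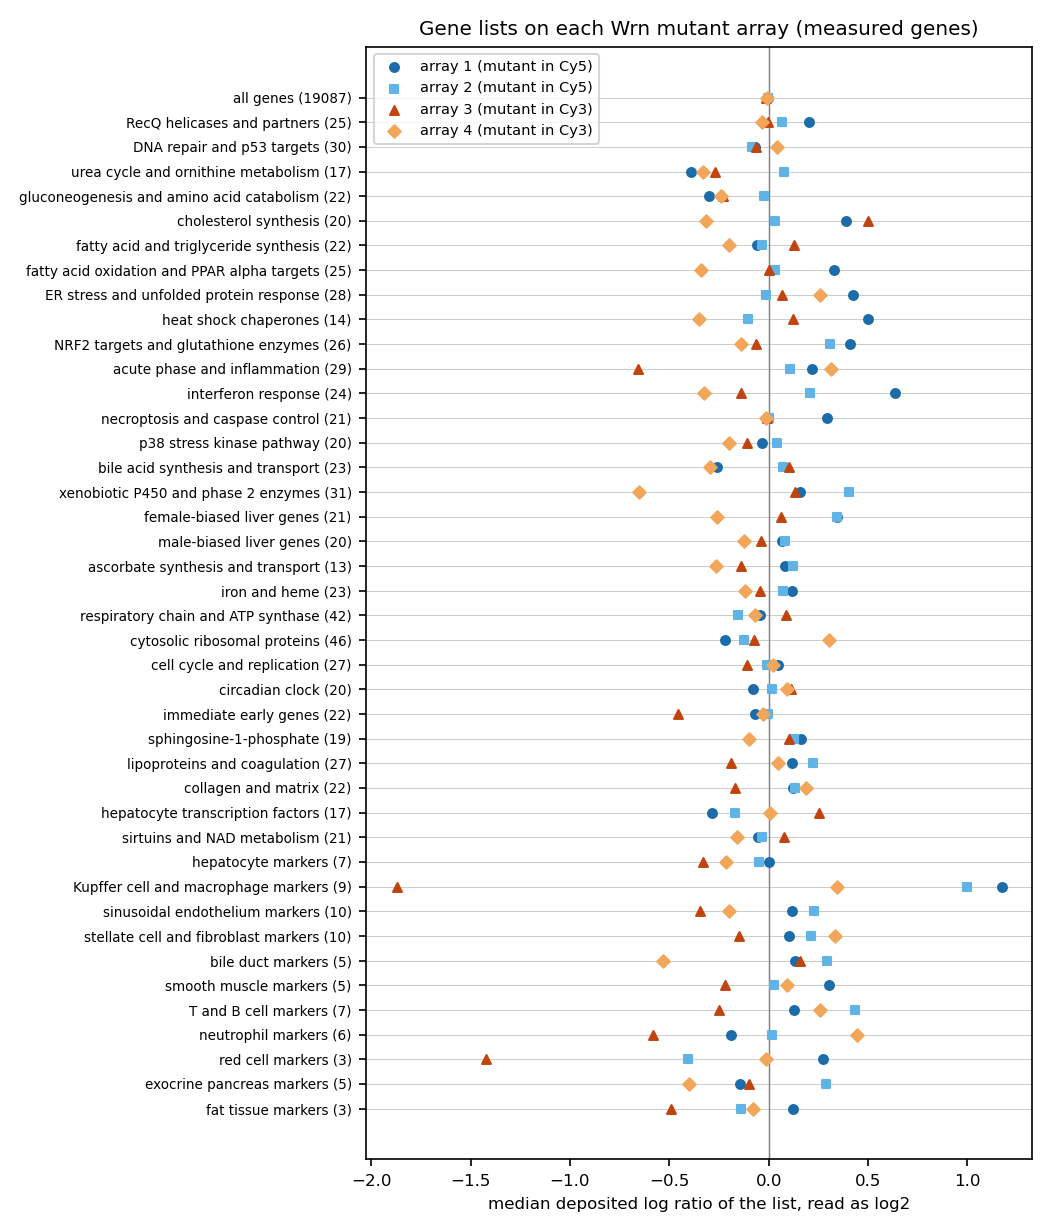
Median deposited log ratio, read as log2, of each gene list on each Wrn mutant array, with the number of measured genes in brackets and all 19087 genes in the top row. Most medians lie within 0.5 of 0, and the Kupffer cell and macrophage markers spread widest, with 1.17 and 1.00 on arrays 1 and 2, -1.87 on array 3 and 0.35 on array 4.

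Markers of resident macrophages moved most from array to array. The median of 9 measured markers was 1.17, 1.00, -1.87 and 0.35 on arrays 1 to 4. Marco, a scavenger receptor, stood at 1.17, 1.00, -5.35 and 0.77, Cd5l, a macrophage-secreted protein, at 1.18, 1.62, -2.84 and 0.50, and Adgre1, which encodes F4/80, at 0.64, 1.13, -2.72 and 0.65. Array 3 is the low one for each of them, and the other 3 arrays are above 0. Treated array 3, with the same wild type number, gave Marco -4.75, and treated array 4 gave it 4.79. As deposited, 7 of the 9 markers had a mean above 0 and the median was 0.10, and without array 3 it was 0.81. Turned, 9 of 9 were above 0 and the median was 0.84. Clec4f, at 0.59 ± 0.20, was the 1 marker with an unadjusted p under 0.05 as deposited, and Clec4f and Vsig4 were the 2 when turned. C1qa, C1qb and C1qc, the chains of complement C1q, stood at -1.90, -1.87 and -1.61 on array 3. Genes with other functions in these cells shared the low value on array 3, such as Hmox1, heme oxygenase, at 0.19, -0.00, -3.38 and 1.06, Spic, a factor of iron-recycling macrophages, at 0.47, 0.29, -3.48 and 0.62, and Cxcl13, a B cell chemokine, at 0.48, 1.16, -3.84 and 0.42. Red cell markers were also lowest there, with a median of -1.42 over 3 genes. Whether macrophage content plays a part in any result here was not tested.

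Markers of other cell types were measured as well. Of 7 hepatocyte markers, the medians were 0.00, -0.05, -0.33 and -0.22 on arrays 1 to 4. Alb stood at 0.50, 1.25, -0.18 and -0.37. For 10 markers of sinusoidal endothelium the medians were 0.12, 0.23, -0.35 and -0.20, for 10 of stellate cells and fibroblasts 0.10, 0.21, -0.15 and 0.34, and for 6 of neutrophils -0.19, 0.02, -0.58 and 0.44. On array 4 the medians of bile duct and exocrine pancreas markers were -0.53 and -0.40, farther from 0 than that of the macrophage markers. Among 22 genes of collagen and matrix, 1 was at an unadjusted p under 0.05 as deposited and 0 turned. Amy2a5, a pancreatic amylase, stood at 0.62, 0.63, -0.61 and -1.15, or 0.75 ± 0.11 turned (adjusted p = 0.0585 in limma). The part of cell content in the results was not tested.

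When both arrays of number 4 were left out, 15 genes were called as deposited, 1 higher and 14 lower. Turned, 145 were called, 140 higher and 5 lower. The 9 genes called under both readings had opposite directions, each lower as deposited and higher turned, as Marco at -2.10 and 3.14. The sole swapped arrays in that fit are those of number 3, which share a wild type number. Of the 15, 14 lay below -1 on mutant array 3, and of the 145, 117 did, beside 394 of all 19087 genes. Choice by that fit favours genes with large values on number 3. The 15 were Hmgcs1, which was higher, and Marco, Hmox1, Acod1, Krt6b, Chil3, Spic, Nnmt, Cd207, Slc25a15, Plac9a, Impdh1, Krt26, Pcolce2 and Gng13, which were lower. The part of array 3 in these calls was not tested.

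Single arrays held the extreme values. A log ratio beyond 3 in either direction was reached by 24 genes on some array and by 0 genes on more than 1 of the 4 arrays, with 4 genes on array 1, 2 on array 2, 9 on array 3 and 9 on array 4. The treated array of each number shares its wild type number. What in the wild type or mutant sample lies behind a single value was not tested.

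Serum amyloid A genes, which hepatocytes make in large amounts in the acute phase response, were high on array 4. Saa1 stood at -0.43, -0.92, -0.66 and 4.69, Saa2 at -0.05, -0.88, -0.85 and 4.77 and Saa3 at -0.06, -0.72, -0.80 and 5.28. Saa3 was thus 38.9-fold higher in the mutant on array 4 as deposited, and 1.74-fold lower on array 3. Treated array 4 gave Saa3 1.78, treated array 1 gave 2.67 and treated array 3 gave -2.62. Lcn2, another acute phase gene, stood at -1.31, 0.45, -0.27 and 3.34. The means of Saa3 were 0.92 ± 1.06 as deposited and -1.32 ± 0.95 turned, and neither was called. Of 29 acute phase and inflammation genes, 3 reached an unadjusted p under 0.05 as deposited, 1 higher and 2 lower, and the list median was 0.22, 0.11, -0.66 and 0.31 on the 4 arrays. Il6ra, the receptor for the cytokine that starts this response, was at -0.37 ± 0.10.

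The promoters of the 3 genes are shown because they moved together on array 4. They are the 250 bases before the RefSeq start on GRCm38.p6, written 5′ to 3′ on the gene's strand, at chr7:46742981-46743230 (minus) for Saa1, chr7:46751583-46751832 (plus) for Saa2 and chr7:46715677-46715926 (minus) for Saa3. Capitals mark the C/EBP core TTGCNNAA, searched on both strands. C/EBP beta is a factor of the acute phase response.
Saa1: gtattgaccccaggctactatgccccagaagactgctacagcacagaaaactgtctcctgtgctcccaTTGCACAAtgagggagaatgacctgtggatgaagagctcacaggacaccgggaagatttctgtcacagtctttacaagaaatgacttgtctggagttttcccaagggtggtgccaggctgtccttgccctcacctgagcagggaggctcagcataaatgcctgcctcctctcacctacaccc
Saa2: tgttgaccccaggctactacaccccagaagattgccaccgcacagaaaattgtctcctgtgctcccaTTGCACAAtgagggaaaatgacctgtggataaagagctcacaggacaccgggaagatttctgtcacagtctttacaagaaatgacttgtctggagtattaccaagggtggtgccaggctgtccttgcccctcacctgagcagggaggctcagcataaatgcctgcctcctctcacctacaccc
Saa3: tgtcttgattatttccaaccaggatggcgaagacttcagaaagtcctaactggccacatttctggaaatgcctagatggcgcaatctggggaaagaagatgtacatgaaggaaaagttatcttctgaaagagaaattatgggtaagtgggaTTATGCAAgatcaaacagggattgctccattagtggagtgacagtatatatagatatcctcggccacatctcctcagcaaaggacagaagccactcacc
The core occurs once in each, and 3142 of 32851 windows of this length (9.56%) hold it. Saa1 and Saa2 are close paralogs, and their features may bind RNA of both. Cebpb itself stood at -0.28, -0.49, -0.09 and -0.40, below 0 on all 4 arrays.

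**Figure D5:**
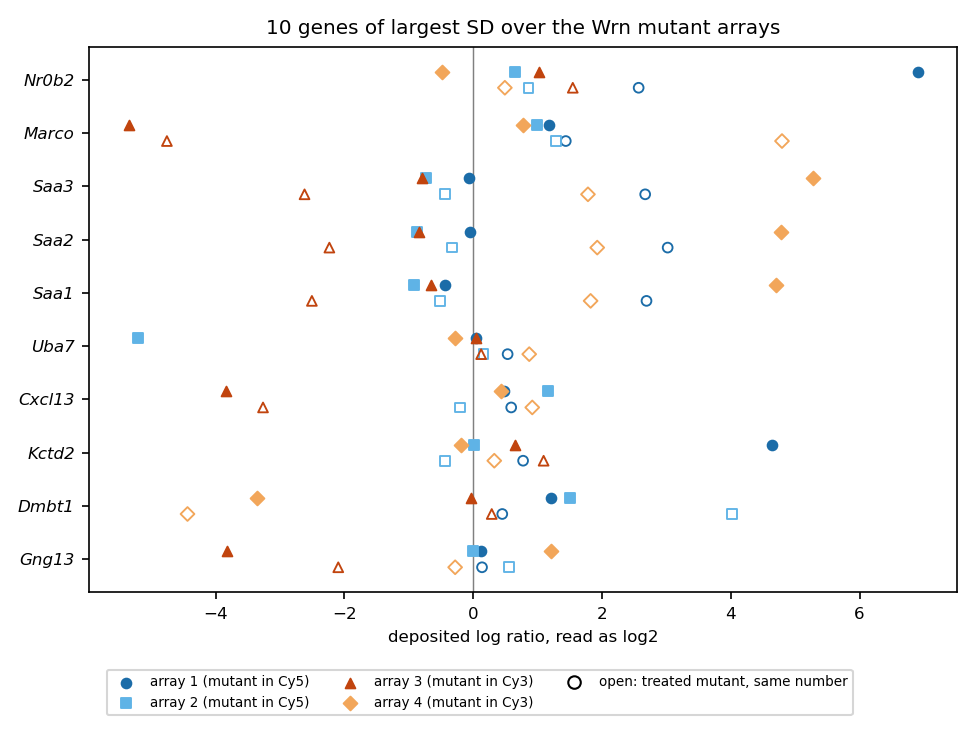
Deposited log ratios, read as log2, of the 10 genes with the largest standard deviation over the Wrn mutant arrays, filled for untreated and open for treated mutants of the same number. In most rows 1 filled symbol stands far from the other 3, as Nr0b2 at 6.90 on array 1 and Marco at -5.35 on array 3.

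The remaining genes of largest standard deviation were Uba7, the activating enzyme of ISG15, at 0.04, -5.20, 0.05 and -0.28, Kctd2 at 4.64, 0.01, 0.65 and -0.18, Dmbt1, a scavenger receptor of epithelia, at 1.21, 1.51, -0.04 and -3.35, and Gng13, a G protein subunit, at 0.13, 0.00, -3.82 and 1.21. For Uba7 the treated array of number 2 gave 0.16, and for Kctd2 that of number 1 gave 0.77, so the extreme value was not shared. For Dmbt1 treated arrays 2 and 4 gave 4.02 and -4.44. Such genes had an SE near or above 0.6 and none was called under either reading.

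Values in the treated mutants stand beside the untreated ones as both groups were set against wild type animals of the same numbers. As deposited, the treated means were -0.48 for Mapkapk2, -0.46 for Slc25a15, -0.68 for Plac9a, -0.46 for P2ry2, 0.49 for Flot1 and 0.61 for Mfhas1. The untreated means were -0.80, -0.94, -0.98, -0.58, 0.52 and 0.76. Of the 24 genes of smallest p as deposited, 21 had a treated mean of the same sign. The share over all genes was not counted. Treated arrays share the dye layout and the wild type numbers, so this agreement is no independent evidence. Some of the 21 treated means lay near 0, as Syne3 at -0.03 and Myh11 at 0.03, beside -0.78 and 0.55 untreated. Lad1, S1pr1 and Vmn2r115 had the other sign, at 0.02, -0.11 and -0.03, beside -0.96, 0.85 and 0.48 untreated. For Mlkl the treated mean was 0.31, with 0.06, 0.33, 0.00 and 0.86 on the arrays, beside 1.41 untreated. Cyp8b1 was at -0.30 in the treated mutants beside -1.89 untreated, while Cyp7a1 was at -2.01 beside -1.11. The difference between treated and untreated mutants was called for 0 genes under each reading in limma. At an unadjusted p under 0.05 stood 817 genes as deposited and 572 turned, both under the 954 expected if no gene differed. That fit took arrays of one number as independent, although they share a wild type number. Shared deviations can raise the SE of this difference, so the low counts do not show that the groups are alike. With the replicate block, 0 genes were called as deposited. No difference between the mutant groups is therefore stated for these genes.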

How the data were processed

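Liver total RNA was measured on 8 two-colour arrays, 4 with untreated and 4 with treated Wrn mutants. The authors deposited log ratios of 45220 features, taken here as log2; the sources used here do not give base, background correction, normalization or direction. The submitters' processing notes name limma without its role. No intensity is given, so dim features were kept and the depth of signal is unknown. GEO's platform annotation paired 33653 features with 1 symbol and 56 with several, and left 11511 unnamed; 33517 features matched RefSeq genes of GRCm38 and 0 symbols were updated. Feature means gave 19087 genes, 8343 of them with several features. Promoters come from RefSeq.

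Gene means were fitted over 8 arrays by limma 3.58.1 (lmFit, eBayes; R 4.3.3), with a coefficient per group and one for dye, which left 5 residual degrees of freedom. Benjamini-Hochberg adjustment ran over all genes, and genes were called at an adjusted p under 0.05. The fit was tested on simulated data. Arrays were grouped by their labels. Members, gene lists and the choice of the main reading were made with earlier results of these data known, and some lists were drawn up around genes already seen to differ. Genes named are the 12 of smallest p per direction as deposited, the 6 largest means per direction of one sign on 4 arrays, called genes and the 6 of smallest p per direction when turned, the 10 of largest standard deviation, the leading members of each list, and always Wrn, Gulo and Slc23a1. Other genes were named after their values were seen. Alternatives were fits of the Wrn mutant arrays alone, no dye coefficient, a replicate block, other feature summaries, scalings, array weights, a robust prior and leaving arrays out. The labels give both arrays of a number the same wild type number, which was taken as pairing them. The main fit did not model this pairing. Over genes, the log ratios of the untreated and treated array of one number correlated at 0.448, 0.247, 0.427 and 0.309 for numbers 1 to 4. What the group and dye terms of the fit left over correlated at 0.00294, 0.0319, 0.243 and 0.203.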

Additional observations from a re-analysis of the deposited data

Results flagged for a closer look

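Among 169 named genes and 41 list medians, 12 genes and 3 list medians had 1 of the 4 Wrn mutant arrays far from the other 3. Chance alone marks about 1 in 20 such groups. Choice of genes for their large spread favours such a mark, though not all of those genes were marked. All values are log ratios as deposited, and no cause was tested.

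Array 1 stood apart for Eif4ebp3 at -4.60, and treated array 1 gave -4.18. It also stood apart for Apob, the protein of very low density lipoprotein, at 0.79, and for the median of the necroptosis and caspase list at 0.30. Array 2 stood apart for Uba7 at -5.20, for Mlkl at 2.46 and for Nmnat1, which makes NAD, at 0.00507 beside 0.34 to 0.36 on the other arrays. Array 3 stood apart for Marco at -5.35 and Cxcl13 at -3.84, which treated array 3 shared at -4.75 and -3.26. It stood apart by less for Nrxn2 at -0.74, for Elovl3 at -0.22 and for the median of the immediate early genes at -0.46. Array 4 stood apart for Saa3 at 5.28, Saa2 at 4.77 and Saa1 at 4.69, and for the median of the DNA repair and p53 list at 0.0416.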

How the results depend on the processing

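The reading of the swapped arrays decides whether any gene is called, 0 as deposited and 9 turned. As deposited, 0 genes were called with the Wrn mutant arrays alone, no dye coefficient, the replicate block, feature medians, scaling, quantile normalization, array weights, a robust prior or each feature on its own, and 0 to 15 with arrays left out (1, Gpcpd1, without number 2 and 15 without number 4). Turned, 0 were called with the Wrn mutant arrays alone, no dye coefficient, scaling, quantile normalization or array weights, 8 with the replicate block, 9 with feature medians, 19 with a robust prior, 84 with each feature on its own, and 0 to 145 with arrays left out (145 without number 4). Each feature on its own gave 2311 genes at an unadjusted p under 0.05 as deposited and 3216 turned, as a gene then counts by its best feature. Within a reading, no direction reversed for the 92 genes followed as deposited or the 75 followed turned, each feature on its own aside. Genes named only for their standard deviation and the list medians were not checked for a reversal. For 92 named genes as deposited, 1468 of 1472 alternative values kept their side of the threshold and 4 passed it; turned, 1084 of 1200 did for 75 genes, 8 passed and 108 no longer passed. Treated minus untreated, as deposited, was called for 0 genes in each of these settings but the Wrn mutant arrays alone and each feature on its own, where it was not run. The pairing changed no other count by over 1.5 times. Signal over background is unknown, and 4 arrays limit precision.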
